A study of Mus musculus with 6 samples.

Results

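Yap1, Wwtr1, the 4 Tead genes, Lats1, Lats2, Ankrd1 and Amotl2 of the Hippo pathway were followed in the RNA and in the ribosome footprints of cultured squamous cell carcinoma cells, called SCCc. The genes were taken by name, and each had an entry of its own among the 23698 gene entries of the tables, so that all 10 could be read. SCCc were primary mouse keratinocytes of P0 (postnatal day 0) back skin with the genotype HrasG12V; Tgfbr2 fl/fl KO, used at passage 10 to 15, and all 3 libraries came from this genotype. Ribosome profiling, which sequences the mRNA fragments covered by ribosomes (footprints), gave 1 library with 3549555 counts on exons and 3198469 on coding sequences (CDS). RNA-seq of total mRNA gave 2 replicates with 10707930 and 14003713 counts on exons. Wild-type keratinocytes were not analysed here, so each value sets a gene against the rest of the transcriptome of SCCc and not against another genotype. Nothing in the labels tells whether the RNA-seq replicates were separate cultures, and the spread between them may be technical.

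In the Hippo pathway, the kinases Stk3 and Stk4 activate the kinases Lats1 and Lats2, which phosphorylate the coactivators Yap1 and Wwtr1 (also called Taz) and hold them in the cytoplasm. Without this phosphorylation Yap1 and Wwtr1 enter the nucleus and bind Tead proteins, the partners that contact DNA, to switch on genes such as Ankrd1, Amotl2, Ccn1 and Ccn2. In skin, Yap1 is known as a driver of basal progenitor proliferation and of squamous cell carcinoma.

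The keratinocyte label was compared with marker genes first. All 8 keratinocyte markers were above 1 RPKM (counts per kb of counted length, scaled to the exon counts of each library) in both RNA-seq replicates, and their levels summed to 14559 and 16674 RPKM. The basal keratins led them, with Krt5 at 7965 and 9483 RPKM and Krt14 at 4824 and 5362 RPKM, and Trp63, the transcription factor of the basal lineage, was at 141 and 125 RPKM. The markers of other cell types stayed far below this sum. The 8 fibroblast markers summed to 10.3 and 16 RPKM, with Col3a1 the most abundant at 3.89 and 5.49 RPKM, and 4 of them were above 1 RPKM in both replicates. In footprints these 8 markers summed to 0.870 RPKM, with 0 footprints on the CDS of Col3a1. The 3 endothelial markers summed to 0.505 and 0.591 RPKM, with Kdr at 0.345 and 0.321 RPKM. Kdr had 20.1 and 24.5 RNA counts, so RNA of the endothelial markers was low but detected. Of the 3 leukocyte markers, Cd68 held nearly all of the 35.2 and 37.5 RPKM, with 35.1 and 37.3 RPKM, while the pan-leukocyte gene Ptprc was at 0.0824 and 0.176 RPKM and the T cell gene Cd3e at 0 counts. The 4 melanocyte markers summed to 5.38 and 5.47 RPKM, of which Pmel made up 5.03 and 5.19 RPKM. In these bulk samples, fewer cells of a type and less RNA per cell cannot be told apart.

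Translational efficiency was the footprint RPKM on the CDS divided by the mean RNA-seq RPKM on exons. It is given as log2 relative to the median of the 9862 genes that had more than 1 RPKM in both RNA-seq replicates, a mean of more than 25 scaled counts over the 3 libraries, and footprints on the CDS. Of the 10 Hippo genes, 8 passed these limits, and Tead2 and Ankrd1 did not. The 8 genes had a median log2 efficiency of 0.02, with 4 above and 4 below the median of all genes. Only Amotl2 lay above 1, where 20.7% of all genes were, and only Tead3 lay below -1, where 21.1% of all genes were. The 8 genes ran from -1.08 to 1.08, while the SD of all 9862 genes was 1.45. Hras and Tgfbr2, the modified genes, had log2 efficiencies of 0.02 and -1.32. Hras had 64.0 RPKM of footprints and 48.5 and 50.9 RPKM of RNA. Of its 1179 and 1619 RNA counts on 2272 nt of exons, 764 and 1027 fell on the 564 nt of CDS. RNA was thus denser on the CDS, and the efficiency of Hras with RNA-seq counted there would be lower but is not given here. Tgfbr2, the gene named as knocked out, had 30.7 RPKM of footprints from 193 counts on the CDS, and 61.4 and 59.0 RPKM of RNA at percentile 87.0 of all genes. Counts per gene show neither the base change nor a lost exon.

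**Figure D1:**
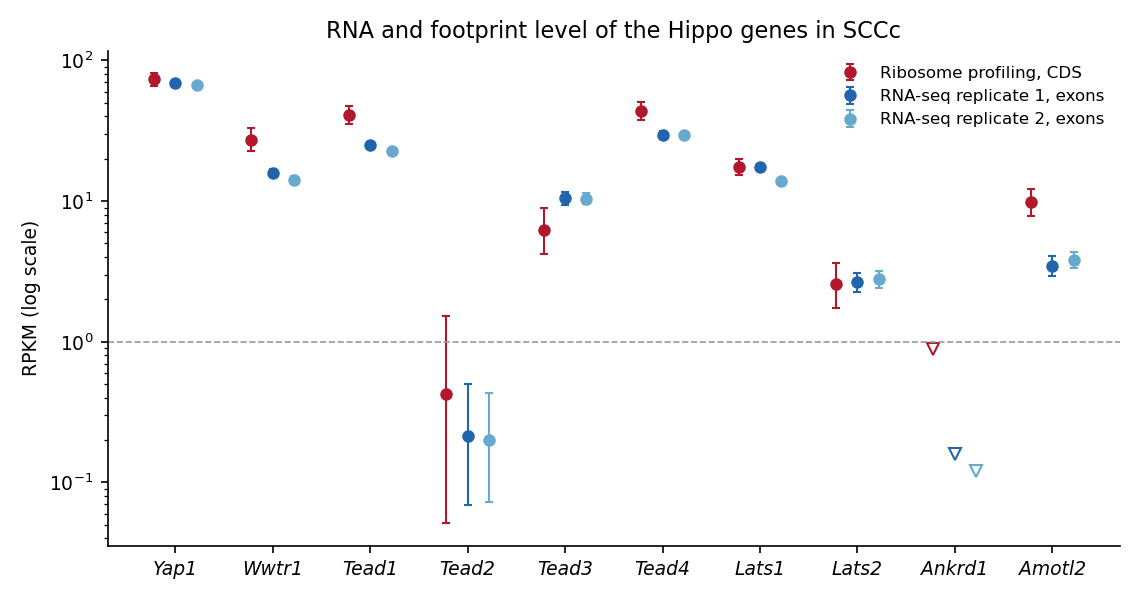
Level of each Hippo gene in SCCc, as RPKM on a log axis, for footprints on the CDS and for RNA on exons in each RNA-seq replicate. Bars are 95% Poisson intervals of the counts, open triangles mark the limit of 3 counts where the count was 0, and the dashed line is 1 RPKM. Yap1 was the highest gene in each library at 66.4 to 73.4 RPKM, and Ankrd1 had no count.

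The coactivators differed in level, while their difference in efficiency rested on how RNA was counted. Yap1 (chr9:7931999-8004596 on GRCm38, - strand) had 73.4 RPKM of footprints on its CDS and 69.5 and 66.4 RPKM of RNA in RNA-seq replicates 1 and 2, from 381 footprints and from 3102 and 3877 RNA counts. It was the most abundant of the 10 genes in all 3 libraries, at percentile 88.6 of all passing genes in RNA and 80.2 in footprints. Wwtr1 (chr3:57455649-57575910, - strand) had 27.4 RPKM of footprints and 15.9 and 14.1 RPKM of RNA, from 116 footprints and 815 and 943 RNA counts. Yap1 RNA therefore exceeded Wwtr1 RNA 4.36-fold in replicate 1 (95% counting interval 4.04 to 4.71) and 4.72-fold in replicate 2 (4.40 to 5.07). In footprints the excess was 2.68-fold (2.18 to 3.30), below the interval of either RNA-seq replicate. The log2 efficiency was -0.23 in Yap1 (SD 0.03 over n = 2 RNA-seq replicates, counting error 0.08) and 0.53 in Wwtr1 (SD 0.11, counting error 0.14). The difference of 0.76 had a nominal interval of 0.37 to 1.15 from both kinds of error. It was not kept beyond error with RNA-seq counted on the CDS, where Yap1 RNA was 3.31-fold (2.90 to 3.78) and 3.26-fold (2.90 to 3.66) that of Wwtr1 and the efficiencies differed by 0.29 (-0.041 to 0.63). With counts not divided by length they differed by 0.26 (-0.12 to 0.63).

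The division of counts between the 5′UTR and the CDS depends on where the annotation sets the start codon, and in the Tead family this is not always an ATG. The 9 bases before the annotated start codon, the start codon itself in capitals and the 4 bases after it are shown for the coactivators, the 3 passing Tead genes and Lats2, from the GENCODE M21 transcripts.
Yap1-201: gccgcagccATGgagc
Wwtr1-201: cccagaaagATGaatc
Tead1-201: gccgaaaacATGgaaa
Tead3-205: accagcacaATAgcgt
Tead4-201: gccggcaccATTacct
Lats2-201: ggactaacaATGaggc
On GRCm38 these start codons lie in coding exons at chr9:8004388-8004390 on the - strand (Yap1), chr3:57575251-57575253 on the - strand (Wwtr1) and chr7:112759483-112759485 on the + strand (Tead1). Those of Tead3-205, Tead4-201 and Lats2-201 lie on the - strand at chr17:28341548-28341550, chr6:128271070-128271072 and chr14:57734214-57734216. Tead4-201 starts at ATT and Tead3-205 at ATA, and their first ATG in frame is codon 67 and codon 66. Tead3 also has a transcript, Tead3-201, that starts at an ATG at chr17:28350593-28350595 and has a 5′UTR of only 5 nt. With 1 transcript for each gene, 12 of 19426 genes (0.0618%) had an annotated start other than ATG, and Tead4 was among them.

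Among the Tead genes, which encode the DNA-binding partners of Yap1 and Wwtr1, Tead4 and Tead1 led. Tead4 (chr6:128224288-128300823, - strand) had 43.7 RPKM of footprints and 29.4 and 29.5 RPKM of RNA, from 199 footprints and 969 and 1271 RNA counts. Tead1 (chr7:112679318-112906807, + strand) had 40.9 RPKM of footprints and 24.9 and 22.6 RPKM of RNA, from 190 footprints and 2622 and 3118 RNA counts on a mature RNA with 8020 counted nt of 3′UTR. Tead4 RNA exceeded Tead1 RNA 1.18-fold in replicate 1 (1.10 to 1.27) and 1.30-fold in replicate 2 (1.22 to 1.39), whereas their footprints did not differ beyond counting error (1.07-fold, 0.877 to 1.31). On the CDS alone, the excess of Tead4 RNA was larger, at 1.64-fold (1.43 to 1.88) and 2.17-fold (1.91 to 2.47). Tead3 (chr17:28331671-28350817, - strand) had 6.28 RPKM of footprints and 10.5 and 10.4 RPKM of RNA, from 29.97 footprints and 337 and 439 RNA counts. It was the only passing Tead gene with fewer RPKM of footprints than of RNA. Tead2 (chr7:45215753-45233644, + strand) had 2.0 footprints and 4.96 and 6.0 RNA counts, or 0.424 RPKM of footprints and 0.215 and 0.199 RPKM of RNA. It did not pass the limits, so its efficiency is not given. The last 13 nt of Tead2 overlap Cd37 on the opposite strand, and whether strand was used in counting is not given in the sources used here.

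Of the summed RPKM of the 4 Tead genes, Tead4 held 45.3% and 47.0% of the RNA and 47.9% of the footprints. Tead1 held 38.3% and 36.1% of the RNA and 44.8% of the footprints. The share of Tead3 was 16.1% and 16.6% of the RNA but 6.88% of the footprints. With RNA on exons, it was the only Tead share that was lower in footprints than in both RNA-seq replicates. On the CDS, RNA was 40.0 and 40.3 RPKM in Tead4, 24.4 and 18.6 RPKM in Tead1 and 13.8 and 14.9 RPKM in Tead3. By these values, the share of Tead4 was lower in footprints as well. Log2 efficiency was 0.44 in Tead1 (SD 0.09, counting error 0.11), 0.23 in Tead4 (SD 0.01, counting error 0.11) and -1.08 in Tead3 (SD 0.01, counting error 0.27). Tead1 exceeded Tead3 by 1.52 (0.93 to 2.11) and Tead4 exceeded Tead3 by 1.31 (0.74 to 1.87). Without division by length, Tead1 (-1.46) was instead below Tead3 (-1.23), with a difference of -0.23 (-0.82 to 0.35), while Tead4 still exceeded Tead3 by 1.20 (0.63 to 1.77). The counting error of Tead3 reached across -1, and with a pseudocount of 1 RPKM its value was -0.97.

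Lats1 and Lats2, the kinases that restrain the coactivators, were far apart in level. Lats1 (chr10:7681214-7716460, + strand) had 17.5 RPKM of footprints and 17.5 and 13.9 RPKM of RNA, from 211 footprints and 1342 and 1395 RNA counts. Lats2 (chr14:57689662-57758388, - strand), which is also a known target of Yap1 and Tead, had 2.57 RPKM of footprints and 2.66 and 2.78 RPKM of RNA, from 30.2 footprints and 158 and 216 RNA counts. The fold between them was 6.84 in footprints (4.67 to 10.0), 6.59 in RNA-seq replicate 1 (5.59 to 7.77) and 5.0 in replicate 2 (4.33 to 5.77). Efficiencies were close to the median of all genes and to each other, with -0.18 for Lats1 (SD 0.22, counting error 0.10) and -0.43 for Lats2 (SD 0.06, counting error 0.27). Their difference of 0.24 had an interval of -0.49 to 0.97. Lats1 had the largest replicate difference of the passing Hippo genes, a log2 ratio of replicate 2 to replicate 1 of -0.33 with a counting error of 0.06. Across all 9862 genes, 95% of these ratios lay between -0.40 and 0.40, and the replicates as a whole differed by more than sampling noise (chi-square 7.52 per degree of freedom). The Lats2 gene overlaps Gm49361, a protein-coding gene on the same strand, and 94.2% of its annotated CDS was counted. That share was lower in Wwtr1 (87.7%), Tead3 (92.2%) and Amotl2 (92.9%) and higher in the other passing Hippo genes.

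Of the known target genes Ankrd1 and Amotl2, only Amotl2 was detected. Ankrd1, a nuclear ankyrin-repeat protein and widely used reporter of Yap1 activity, lies at chr19:36111961-36120099 on the - strand and had 0 counts on exons and on the CDS in all 3 libraries. A count of 0 allows up to 3 counts, which corresponds to 0.883 RPKM of footprints and 0.159 and 0.121 RPKM of RNA, for counting error alone. Ankrd1 transcripts were therefore not detectable at this depth. Amotl2, an angiomotin-like protein that binds Yap1 at cell junctions, lies at chr9:102716672-102733418 on the + strand. It had 9.82 RPKM of footprints and 3.47 and 3.84 RPKM of RNA, from 80.7 footprints and 156 and 226 RNA counts. It was near the lower end of all genes in RNA, at percentile 10.4, and higher in footprints, at percentile 32.9. Its log2 efficiency of 1.08 (SD 0.11, counting error 0.18) was the highest of the 8 genes and stood at percentile 81.0 of all genes. The value was 1.16 against RNA-seq replicate 1 and just under 1 against replicate 2. It was 0.90 with a pseudocount of 1 RPKM, 1.24 without division by length and 1.41 with RNA-seq counted on the CDS. The error reached across 1, so that a value past this limit rests on the setting.

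**Figure D2:**
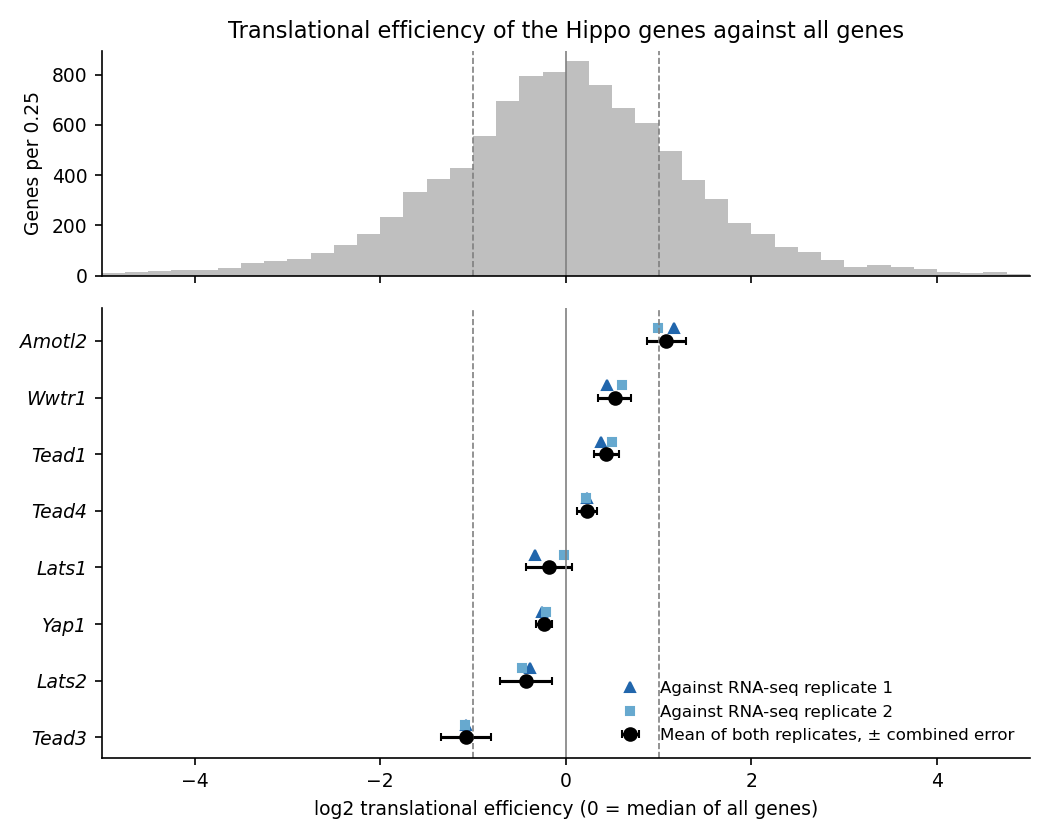
Log2 translational efficiency in SCCc, relative to the median of all genes. The upper panel counts the 9862 genes in steps of 0.25 over the range of the axis, and the lower panel shows the 8 Hippo genes that passed, with the SD over RNA-seq replicates and the counting error combined as bars and the value against each replicate above. Amotl2 (1.08) and Tead3 (-1.08) lay at the dashed lines at 1 and -1, and the other 6 genes lay between -0.43 and 0.53.

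In RNA on exons, the order of the genes was Yap1, Tead4, Tead1, Lats1, Wwtr1, Tead3, Amotl2, Lats2 and Tead2, followed by Ankrd1 without a count. Lats1 and Wwtr1 were neighbours whose replicate values overlapped, and the other neighbours with counts did not overlap. In footprints on the CDS, Wwtr1 stood above Lats1 and Amotl2 above Tead3. RNA-seq counted on the CDS already had Wwtr1 (21.5 and 21.4 RPKM) above Lats1 (16.5 and 14.0 RPKM). That change was therefore not seen with RNA and footprints both read on the CDS, while the change of Amotl2 and Tead3 was. In RNA on the CDS, the replicate values of Tead1 (24.4 and 18.6 RPKM) overlapped those of Wwtr1, Lats1 those of Tead3 (13.8 and 14.9 RPKM), and Amotl2 (3.22 and 3.91 RPKM) those of Lats2. In replicate 2, Wwtr1 was above Tead1 and Tead3 above Lats1 on the CDS, whereas footprints had the reverse order. For efficiency, the order was Amotl2, Wwtr1, Tead1, Tead4, Lats1, Yap1, Lats2 and Tead3. Of the 7 neighbouring pairs in this order, only Amotl2 and Wwtr1 differed by more than 1.96 combined errors, with a difference of 0.56 (0.01 to 1.10). Of all 28 pairs, 20 did, and these intervals were not adjusted for the number of pairs. Each SD behind them rests on n = 2 RNA-seq replicates, so the intervals may be too narrow. With RNA-seq counted on the CDS 15 pairs did, 13 of them among the 20. Without division by length 11 of the 20 were kept in the same direction, and 3 turned beyond error. In these, Tead1 was below Lats1 by 1.21 (0.68 to 1.74), below Lats2 by 1.30 (0.69 to 1.91) and below Yap1 by 0.73 (0.43 to 1.03). Of the 7 neighbouring pairs, 3 and 4 differed beyond error under these 2 alternatives. The error holds the spread of the RNA-seq replicates and the counting of footprints, but not the spread between ribosome profiling libraries, of which 1 was used here. The paper also lists ribosome profiling of squamous cell carcinoma samples from an earlier series, which was not analysed here.

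Summed by role, Yap1 and Wwtr1 reached 101 RPKM of footprints and 85.4 and 80.5 RPKM of RNA. The Tead genes together reached 91.3 RPKM of footprints and 65.0 and 62.8 RPKM of RNA. The Lats genes together reached 20.1 RPKM of footprints and 20.2 and 16.7 RPKM of RNA. Coactivator signal exceeded Tead signal 1.10-fold in footprints and 1.31-fold and 1.28-fold in RNA, and Tead signal exceeded Lats signal 4.54-fold in footprints and 3.23-fold and 3.76-fold in RNA. No counting interval was computed for these sums, so whether the 1.10-fold in footprints lies beyond counting error was not tested. RNA was summed on exons and not on the CDS, so the folds in footprints and in RNA were not read on the same region.

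**Figure D3:**
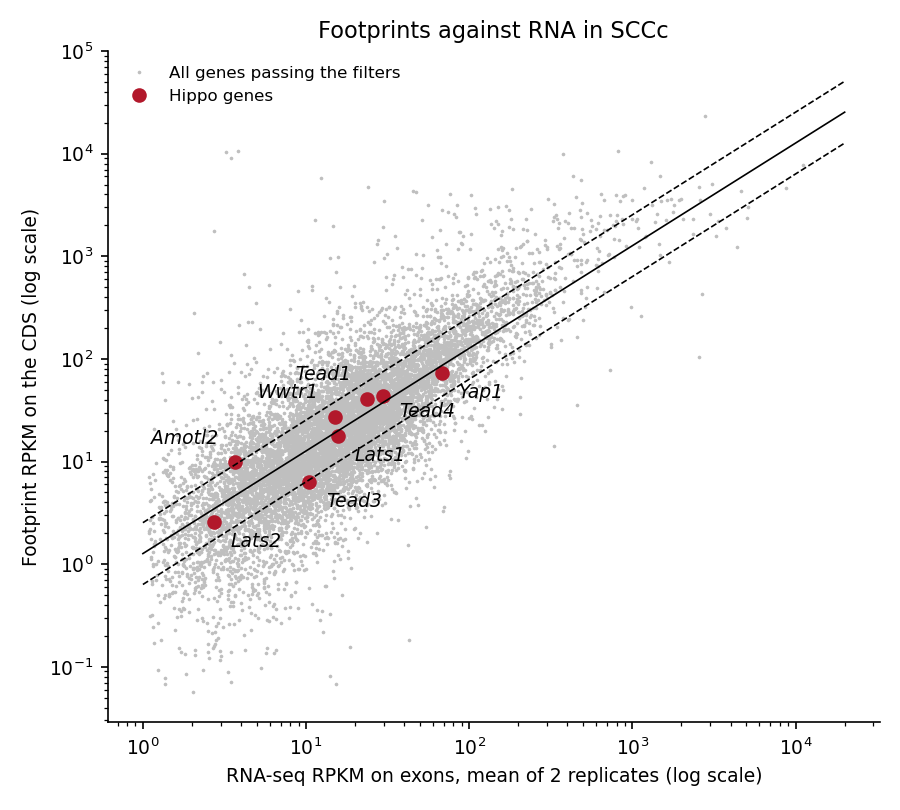
Footprint RPKM on the CDS against mean RNA-seq RPKM on exons in SCCc, both on log axes, for all 9862 genes that passed (grey) and the 8 Hippo genes (red). The solid line is the median ratio of all genes and the dashed lines lie at log2 differences of 1 and -1 from it. Amotl2 lies on the upper dashed line and Tead3 on the lower one.

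Length and region choices moved several of these values across the median of all genes. When counts were not divided by length, Wwtr1 (-0.47), Tead1 (-1.46) and Tead4 (-0.025) fell below it. When RNA-seq was counted on the CDS, Yap1 (0.0084) and Lats1 (0.15) lay above it. When every library had to hold at least 100 counts of a gene, which raised the median of all genes by 0.39, Tead4 (-0.17) fell below it, and Tead3, Lats2 and Amotl2 were no longer among the genes.

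Footprints on the 5′UTR were counted separately. All 8 passing Hippo genes had at least 60 nt of counted 5′UTR and 10 footprints on the CDS, limits that 7445 genes met, and the median density on the 5′UTR was 0.385 of that on the CDS. Lats2 was the only gene of the 8 in which the 5′UTR was more densely covered than the CDS, a pattern shown by 17.4% of the 7445 genes, so 1 of 8 is near the background. Its 5′UTR of 436 nt had 9.81 footprints, or 6.34 RPKM against 2.57 RPKM on the CDS, a ratio of 2.47 at percentile 97.2. On the log2 scale this ratio was 1.31 with a counting error of 0.53, and the 5′UTR held 24.5% of the footprints on Lats2 exons. RNA-seq on the same 5′UTR was 2.22 and 2.47 RPKM, close to the RNA level of the CDS at 2.65 and 3.31 RPKM. The 5′UTR of Lats2-201 holds 8 ATG triplets. Genes with a higher density on the 5′UTR had a median of 2 such triplets and 3.82% had 8 or more, while the other genes had a median of 0 and 1.60% had 8 or more. The annotated 5′UTRs of the former were also longer, with a median of 227 nt against 184 nt, and the part of length in the number of triplets was not tested. The part of Gm49361, which overlaps Lats2 on the same strand, in these counts was not tested. Which point of a footprint was assigned to a region is not given in the sources used here.

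The remaining genes had lower density on the 5′UTR. The ratio to the CDS was 0.647 in Lats1, 0.621 in Amotl2, 0.481 in Yap1, 0.392 in Tead4, 0.342 in Tead1 and 0.174 in Wwtr1. The counts behind them ranged from 2.42 footprints in Wwtr1 to 34.6 in Tead4, so that only large differences would show. Tead3 stood apart with 0.225 footprints on 558 nt, where 12.4 would have fallen at the density of its CDS, a ratio of 0.0181 at percentile 7.94. RNA-seq on this 5′UTR was as low, at 0.0194 and 0.0156 of the RNA density on the CDS, so footprints were not lower there than RNA, with few counts of either. Tead3 was thus lowest among the 8 genes in 5′UTR density, and lowest in efficiency as well unless counts were left undivided by length.

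RNA-seq on the 5′UTR separated the genes in another way. From the exon density, the 206 nt of the Yap1 5′UTR would have held 153 and 192 RNA counts, but it had 0 and 1.0. A count of 0 allows up to 3 counts, so Yap1 5′UTR signal was far under that of the rest of the RNA in both replicates. The ribosome profiling library had 25.8 footprints on the same 206 nt, or 35.3 RPKM. In Tead3, 62.6 and 81.6 RNA counts would have fallen on the 5′UTR and 1.60 and 1.81 did. These were 2 of the 6 Hippo genes with at least 20 counts to be expected there. Of 5268 genes with as many, 23.2% were likewise more than 8-fold under the exon density in both replicates, a limit chosen after the values had been seen. At a limit of 4-fold, Tead1 and Tead4 joined them, with 36.2% of all genes, and at 16-fold Yap1 and Tead3 were still under it, with 15.2% of all genes. Base composition moved with this measure. The median GC content of the annotated 5′UTR was 75.0% in the genes under the 8-fold limit and 63.8% in the other genes, and it was 70.9% in Yap1-201 and 71.7% in Tead3-205. Of the other 4 tested Hippo genes, GC content was higher in Tead1-201 (74.5%) and Tead4-201 (72.8%) and lower in Wwtr1-201 (64.7%) and Lats1-201 (43.6%). In these transcripts, the 4 genes under the 4-fold limit were thus all above Wwtr1 and Lats1. That order depends on the transcript, with 76.7% in Wwtr1-202 (30 nt), 55.6% in Tead1-202 and 60.2% in Tead4-203. The counted 5′UTRs of Yap1, Tead1 and Tead4 had the length of the transcripts used. Those of Wwtr1 (143 nt) and Tead3 (558 nt) did not, against 232 nt in Wwtr1-201 and 406 nt in Tead3-205. The counted Lats1 5′UTR of 374 nt was closer in length to that of Lats1-202 (369 nt, 65.9% GC) than to that of Lats1-201 (220 nt). The part of base composition in the low RNA signal was not tested. Wwtr1 did not show it, with 21.1 and 31.2 RNA counts on its 143 nt of 5′UTR where 24.4 and 28.2 would have fallen.

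**Figure D4:**
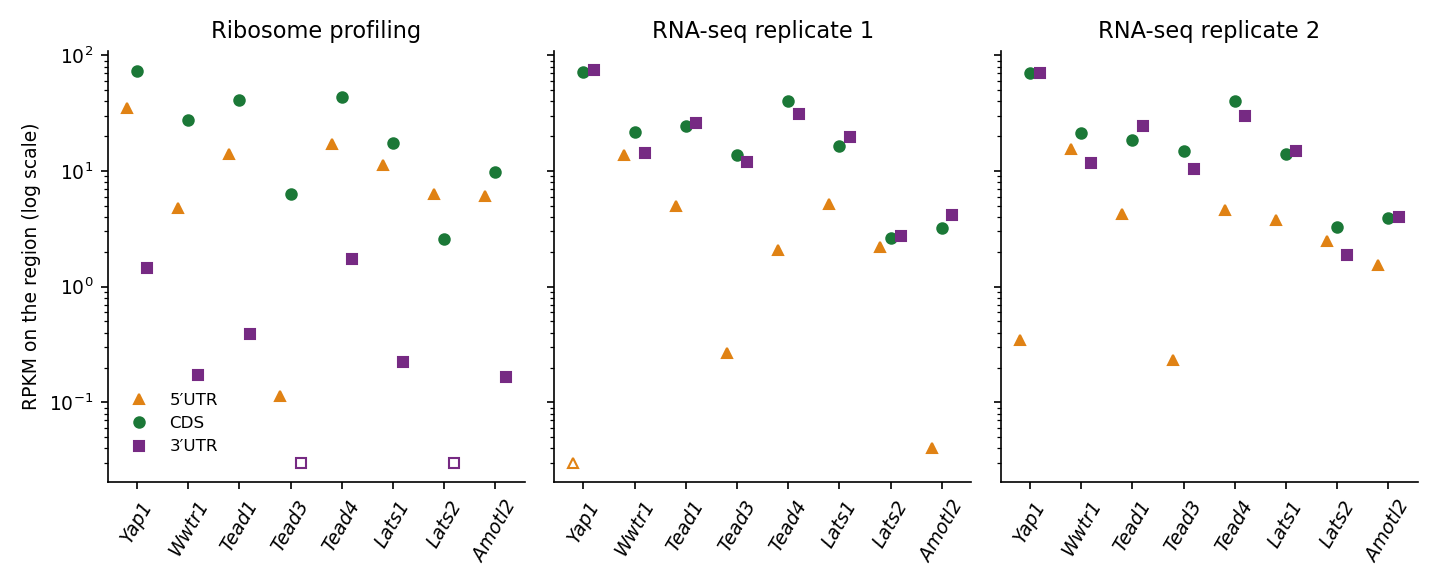
RPKM on the 5′UTR (triangles), CDS (circles) and 3′UTR (squares) of the 8 Hippo genes in each library, on a log axis, with open symbols at the bottom for a count of 0. Footprints were low on every 3′UTR, footprints in Lats2 were denser on the 5′UTR than within the CDS, and the RNA signal on the 5′UTR was low in Yap1 and Tead3.

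On the 3′UTR, footprints were sparse in all 8 genes. Density relative to the CDS was at most 0.0396, in Tead4 with 7.53 footprints, and 0 footprints fell on the 3′UTRs of Tead3 and Lats2. The median of 8934 genes was 0.0163. RNA-seq covered the 3′UTRs of the same genes at 0.542 to 1.32 times the density of the CDS, so the drop from CDS to 3′UTR was far larger in footprints than in RNA. Wwtr1, Tead3 and Tead4 were lower on the 3′UTR than on the CDS in both RNA-seq replicates, at 0.542 to 0.869 times the CDS density.

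The genes with levels most like those of Yap1 over the 3 libraries, by Euclidean distance in log2 RPKM, were Npepps (0.05), Lta4h (0.12) and Cdk2ap1 (0.12). Npepps had 74.4 RPKM of footprints and 70.6 and 64.9 RPKM of RNA. For Wwtr1 the nearest genes were Zfp191 (0.08), Rest (0.09) and Igf1r (0.10), and Zfp191 had 28.1 RPKM of footprints and 16.8 and 14.0 RPKM of RNA. Likeness over 3 libraries of 1 condition describes level and efficiency alone.

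The rest of the pathway was read from a list of 35 genes that regulate Yap1 and Wwtr1 or compete with them for Tead. Of these, 30 passed and had a median log2 efficiency of -0.31. Only 2 lay above 1, against 20.7% of all genes, and 10 lay below -1, against 21.1% of all genes. When counts were left undivided, 0 lay above 1, against 19.2% of all genes, and 7 below -1 (23.3%), near the 21.1% of all genes. With RNA-seq counted on the CDS, 10 still lay below -1 (33.3%), against 19.5% of all genes. The upstream kinases Stk3 and Stk4 (Mst2 and Mst1) were above the median of all genes, with 0.54 (SD 0.27, counting error 0.14) and 0.59 (SD 0.15, counting error 0.11). Their scaffold Sav1 was at -1.45 (SD 0.07, counting error 0.16), with 21.5 RPKM of footprints and 48.0 and 44.5 RPKM of RNA. The Lats cofactors Mob1a and Mob1b were at 0.73 (SD 0.10) and 1.93 (SD 0.22). Mob1b was the highest gene of the list, with 72.8 RPKM of footprints and 16.8 and 13.4 RPKM of RNA. Mob1a had more RNA, 87.4 and 78.3 RPKM, and 175 RPKM of footprints.

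Nf2, which encodes the tumor suppressor merlin at the top of the pathway, had the lowest efficiency of the list at -2.21 (SD 0.04, counting error 0.15). It had 14.9 RPKM of footprints against 53.6 and 54.9 RPKM of RNA, and 84.5% of its annotated CDS was counted. The kinase Map4k2 (-2.17) and the LIM-domain protein Wtip (-2.12), a Lats inhibitor, came next. At the upper end, Stk38l, a kinase related to Lats, was at 1.46 with 39.0% of its annotated CDS counted, and the kinase Taok1 was at 0.99. Without division by length, Mob1b (0.65) and Stk38l (-0.046) no longer lay above 1, and Stk4 (-0.22) and Taok1 (-0.046) fell below the median of all genes. With RNA-seq counted on the CDS, 3 genes lay above 1 (10%, against 18.3% of all genes), since Mob1a was at 1.08. Under that setting, Stk38l (2.06) was higher than Mob1b (1.70) and Map4k2 (-2.34) was lower than Nf2 (-2.25). The other 5 genes did not pass. Amot, an angiomotin, had 1.0 and 4.0 RNA counts and 3.0 footprints, all of these on the 3′UTR. The cadherins Fat4 and Dchs1 and the Tead cofactors Vgll1 and Vgll2 had 0 counts in all 3 libraries. Amotl2 and Amotl1 were thus the angiomotin genes with footprints on the CDS, and Amotl1 was at -0.91.

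Target genes other than Ankrd1, Amotl2 and Lats2 were read from a list of 19, of which 16 passed. Their median log2 efficiency was -0.19, with 4 above 1 (Birc5, Ccn1, Ccn2 and Igfbp3) and 3 below -1 (Fjx1, Arhgef17 and Myof), beside 20.7% and 21.1% of all genes. The matricellular proteins Ccn1 and Ccn2, the targets most often used beside Ankrd1, were both detected. Ccn1 had 15.0 RPKM of footprints and 2.87 and 3.85 RPKM of RNA, and Ccn2 had 107 RPKM of footprints and 29.3 and 32.7 RPKM of RNA. Both lay above 1, with log2 efficiencies of 1.82 (SD 0.31, counting error 0.22) in Ccn1 and 1.45 (SD 0.12, counting error 0.08) in Ccn2. The receptor tyrosine kinase Axl was at 0.18 (SD 0.11, counting error 0.06).

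Birc5, the apoptosis inhibitor survivin, had the highest value of the targets at 4.34 (SD 0.17, counting error 0.08), with 354 RPKM of footprints and 15.0 and 12.6 RPKM of RNA on 359 counted nt of CDS. RNA on that CDS was higher, at 57.0 and 52.6 RPKM, and with RNA-seq counted on the CDS the value fell to 2.65 (SD 0.09, counting error 0.09), which was still the highest of the targets. Without division by length it was 2.33. The lowest were Fjx1 at -1.98 (SD 0.19, counting error 0.23) and Arhgef17 at -1.77 (SD 0.14, counting error 0.18). With RNA-seq counted on the CDS, Fjx1 was at -1.11, above Arhgef17 (-1.81), and Myof was at -0.89. Without division by length, Igfbp3 (0.63) no longer lay above 1 and Myof (-0.25) no longer below -1, and Rbms3 (-2.34) was lowest. Foxf2, Ccdc80 and Tgfb2 did not pass. Foxf2 had 0 RNA counts in both replicates and 1.15 footprints, all on the 3′UTR, while Ccdc80 had 5.0 and 8.0 and Tgfb2 had 9.0 and 7.0 RNA counts without a footprint on the CDS.

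**Figure D5:**
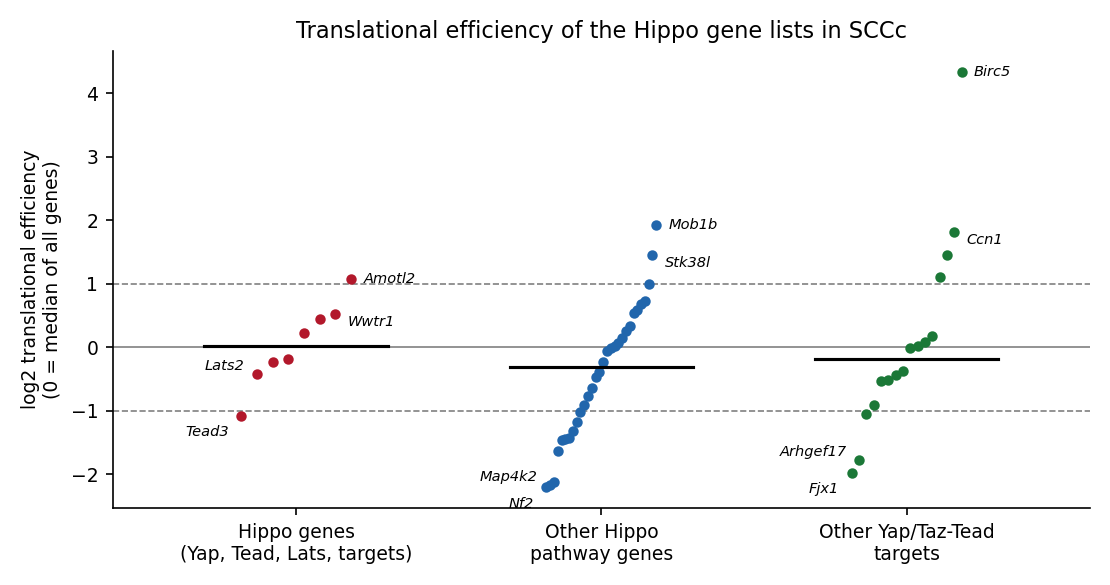
Log2 translational efficiency in SCCc, relative to the median of all genes, of the 8 Hippo genes that passed, of 30 other Hippo pathway genes and of 16 other target genes. Each point is a gene in order of its value, black bars are medians (0.02, -0.31 and -0.19), dashed lines lie at 1 and -1, and the 2 lowest and 2 highest genes of each list are named.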

How the data were processed

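The authors trimmed the reads with Trim Galore, discarded footprint reads from rRNA, tRNA and mitochondria with Bowtie2 2.4.1, aligned to GRCm38 with STAR 2.6.1 and counted genes with Plastid. The deposited values are estimated counts per gene and region, which need not be whole, with 1 library per file. Beside them the authors give RPKM over a larger library total, which entered 1 alternative filter, and RPKM was computed again over the sum of exon counts. The annotation release used for counting is not given in the sources used here.

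Ratios were computed in Python 3.11.15 with pandas 2.3.3 and numpy 2.4.6. Counts were rounded for the DESeq2 1.42.0 size factors of the scaled mean. SDs are over the RNA-seq replicates. Counting errors assume Poisson counts and cover counting alone, since PCR copies are not independent molecules. Intervals are nominally 95%. Those of efficiency differences use a normal quantile with SDs over n = 2, so their true coverage may be lower. With 1 condition, no test between groups was possible, and the RNA-seq replicates were compared by a chi-square test. The calculation was tested on simulated data. Gene structures and start codons came from GENCODE M21 (GRCm38), matched by symbol.

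Members and lists were chosen with earlier results of these data known. Named were all 10 members, Stk3, Stk4, Sav1, Mob1a, Mob1b and Nf2 with the 3 highest, 3 lowest and all failing genes of the pathway list, and Ccn1, Ccn2, Axl and Birc5 with the 2 highest and 2 lowest targets. Krt5, Krt14, Trp63, the top gene of each other marker list, the 3 nearest genes of Yap1 and Wwtr1, Hras and Tgfbr2 were added. Amotl1, Cd3e, Ptprc, Igfbp3, Myof, Rbms3 and the failing targets were named after their values were seen. Alternatives were RNA-seq on the CDS, undivided counts, a pseudocount of 1 RPKM, omission of either RNA-seq replicate, other filters, and scaling by DESeq2 size factors or edgeR 4.0.16 TMM factors.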

Additional observations from a re-analysis of the deposited data

How the results depend on the processing

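No paired analysis was possible because all libraries share 1 condition and the ribosome profiling library carries no replicate number. Scaling by TMM or DESeq2 factors cancels in the centring on the median of all genes, apart from the filter and the weight of each RNA-seq replicate, and so tests little. Leaving out 1 RNA-seq replicate gave a median log2 efficiency of the Hippo genes from -0.015 to 0.10, 0 to 1 genes above 1, and a target median from -0.22 to -0.18. With a pseudocount, 0 genes lay above 1 and 0 below -1. With RNA-seq on the CDS, the Hippo median was 0.11 and the target median -0.020, and Yap1 (0.0084) and Lats1 (0.15) changed sign. Without division by length, the Hippo median was -0.36, 2 genes lay below -1, the pathway median was -0.64, and Wwtr1 (-0.47), Tead1 (-1.46) and Tead4 (-0.025) changed sign. A minimum of 100 counts left 4829 genes and 5 Hippo genes and raised the median of all genes by 0.39. The Hippo median was then -0.17, which is also the value of Tead4, with 0 genes above 1 and 0 below -1, a pathway median of -0.41 and a target median of -0.38. Without these filters, beyond 1 count in each library, 9 Hippo genes entered, with Tead2 added on 2.0 footprints. The Hippo median was then 0.19, which is also the value of Tead4, and the target median -0.22. With the deposited RPKM in the filter, Amotl2 and Lats2 did not pass, which left 0 genes above 1. With at least 100 nt of 5′UTR and 30 footprints, 834 of 5179 genes (16.1%) had higher 5′UTR density, and Lats2 was again the only Hippo gene among them. The limits of 4-fold and 16-fold for RNA-seq on the 5′UTR, chosen after seeing the data, gave 1909 and 803 genes. Beyond the smaller gene sets of stricter filters, the cause of these shifts was not tested. Tead3, Lats2 and Amotl2 rest on fewer than 100 footprints.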
